A study of Sus scrofa with 5 samples.

Results

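The miRNAs of the hairpins mir-143 and mir-145 were described in small RNA libraries of 5 porcine samples. The members were chosen by name, as the mature miRNAs of these hairpins in the table of reported miRNAs, and 4 of its 411 mature names belonged to the pair: ssc-miR-143-3p, ssc-miR-143-5p, ssc-miR-145-5p and ssc-miR-145-3p. All 4 were among the 327 names with a read in at least 1 library. BL_1 and BL_2 were pools of day 7 blastocysts (BLs) made by parthenogenetic activation, in which the oocyte is activated by an electric pulse without sperm. The ES-like cells were an embryonic stem cell-like line derived from in vitro produced blastocysts. They were at passage 19 and were grown with stem cell factor and basic fibroblast growth factor on mitomycin-treated mouse embryonic fibroblasts. The porcine embryoid bodies (PEBs) were aggregates that clumps of passage 19 ES-like cells formed in hanging drops during 5 to 6 days without these cytokines. The pig fetal fibroblasts (PFFs) were at passage 9 and came from the trunk tissue of mixed breed fetuses of about 30 days, without head, limbs and internal organs. Replicate libraries were made of BLs alone (2), and the 3 cultured cell types had 1 library each, so differences among the latter have no replicate check.

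A miRNA is cut from a hairpin precursor as a short duplex, and its strands are named 5p and 3p after the arm of the hairpin they come from. Usually more of one strand than of the other is retained in the silencing complex. miR-143 and miR-145 are processed from one transcript in mammals and are known as miRNAs of smooth muscle cells and of other mesenchymal cells such as fibroblasts. In smooth muscle cells, serum response factor and myocardin drive their gene. miR-143-3p is known to target ELK1 and miR-145-5p to target KLF4, and in human embryonic stem cells miR-145-5p is also known to repress OCT4 and SOX2. The target mRNAs were not measured in these samples. In the RefSeq annotation of the assembly Sscrofa11.1, a later build than the one to which the reads were aligned, the genes of both hairpins lie on the same chromosome with 0 annotated genes between them, inside the annotated span of IL17B. Each of the 4 mature names had 1 precursor row, so no reads of the pair had to be assigned among several precursors of one name.

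The depth of the libraries set what could be seen of the pair. Mature miRNA reads ranged from 113743 in BL_1 to 27071931 in PFFs, the other libraries lying at 2782150 (BL_2), 6372500 (ES-like cells) and 15849954 (PEBs). Levels are given as reads per 1000000 mature miRNA reads of the library (RPM). A single read stood for 8.79 RPM in BL_1 and for 0.0369 RPM in PFFs, and a miRNA without a read could still be present at up to 26.4 RPM in BL_1 and 1.08 RPM in BL_2 (a limit of 3 reads). All intervals are 95% intervals of the counting error alone, since PCR copies of one molecule are counted as separate reads. The libraries are bulk samples, in which fewer cells that express a miRNA and less of it per cell cannot be told apart. The labelled cell types were compared with miRNAs known from them. ssc-miR-371-5p, of a cluster known from early embryos, had from 296148 to 324635 RPM in the BL libraries and 30.9 RPM in ES-like cells. ssc-miR-363, of a cluster known from embryonic stem cells, was at 41258 RPM in ES-like cells and 280.0 RPM in PFFs. ssc-miR-21, abundant in fibroblasts, took 52.3% of the reads of PFFs. The study's summary of reads exchanges the totals of ES-like cells and PFFs relative to the table used here, and these markers run the way the labels of the table say. All comparisons of PFFs with ES-like cells rest on these labels.

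ssc-miR-143-3p was the most abundant member in every library, and its level was highest in PFFs. PFFs had 2747983 reads of it (101507 RPM, exact Poisson interval 101387 to 101627), PEBs 283990 (17917 RPM, 17852 to 17983), ES-like cells 84285 (13226 RPM, 13137 to 13316), BL_2 168 (60.4 RPM, 51.6 to 70.2) and BL_1 2 (17.6 RPM, 2.13 to 63.5). The intervals of the BL libraries overlapped each other, and those of the 3 cultured libraries overlapped neither each other nor those of BLs. In PFFs it held 10.15% of the mature reads (95% Wilson interval 10.14 to 10.16%) and ranked 2, behind ssc-miR-21. It ranked 11 in PEBs, 13 in ES-like cells and 135 in BL_2.

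ssc-miR-145-5p, the strand of mir-145 that is usually taken as the functional one, was nearly absent from BLs and again highest in PFFs. PFFs had 72867 reads (2692 RPM, 2672 to 2711), PEBs 5192 (327.6 RPM, 318.7 to 336.6), ES-like cells 2043 (320.6 RPM, 306.8 to 334.8), BL_2 3 (1.08 RPM, 0.222 to 3.15) and BL_1 0. ES-like cells and PEBs overlapped in their intervals, while PFFs stood apart from both.

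The opposite strands, ssc-miR-143-5p and ssc-miR-145-3p, had lower levels in the cultured libraries, though in PEBs ssc-miR-145-3p came close to ssc-miR-145-5p, and the only read of mir-145 in BL_1 was of ssc-miR-145-3p. Reads of ssc-miR-143-5p numbered 23053 in PFFs (851.5 RPM, 840.6 to 862.6), 1251 in PEBs (78.9 RPM, 74.6 to 83.4), 396 in ES-like cells (62.1 RPM, 56.2 to 68.6) and 0 in both BL libraries. The limit of 3 reads over the summed BL libraries was 1.04 RPM. Those of ssc-miR-145-3p numbered 13824 in PFFs (510.6 RPM, 502.2 to 519.2), 4991 in PEBs (314.9 RPM, 306.2 to 323.8), 1110 in ES-like cells (174.2 RPM, 164.1 to 184.7), 0 in BL_2 and 1 in BL_1 (8.79 RPM, 0.223 to 49.0). All 4 members had the order PFFs over PEBs over ES-like cells over both BLs in RPM, an order that 7.17% of the 279 miRNAs tested had. For ssc-miR-145-5p, the step from ES-like cells to PEBs was within counting error in RPM.

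**Figure D1:**
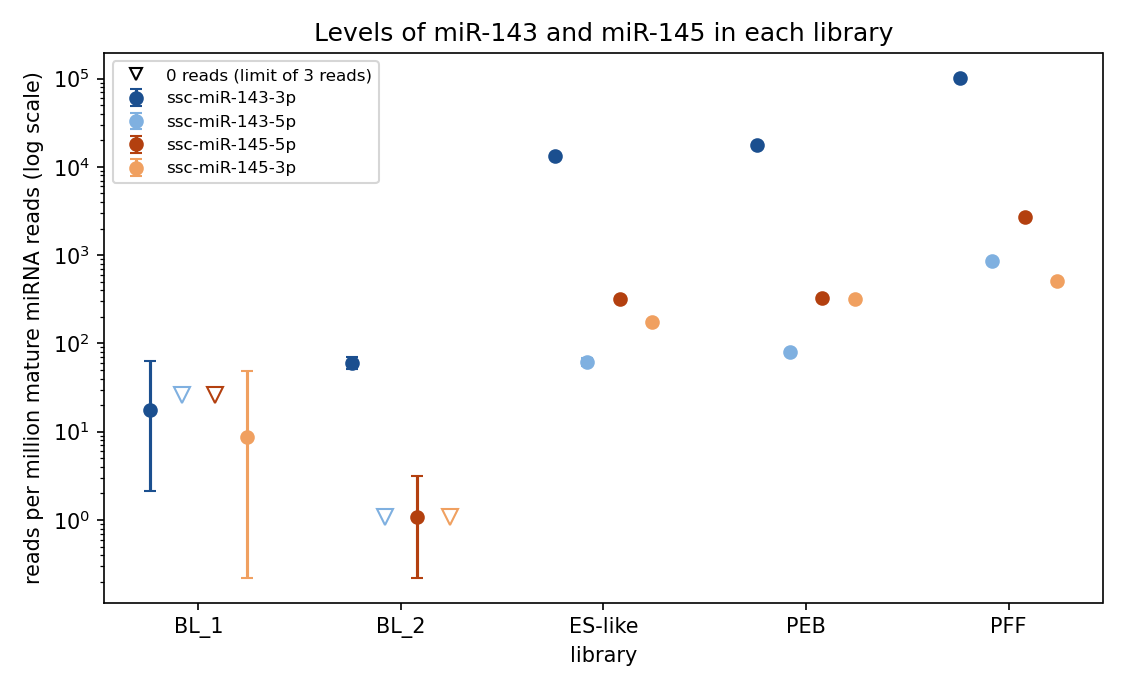
Levels of the 4 members in each library, in RPM on a log scale. Points are single libraries, bars are exact Poisson 95% intervals, and open triangles stand at the limit of 3 reads where a library had 0 reads. ssc-miR-143-3p lies at 101507 RPM in PFFs and at 17.6 and 60.4 RPM in the BL libraries.

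BLs were compared with the cultured cells because the series sets blastocysts beside cell lines. The reads of both BL libraries were summed for the ratios, since BL_1 alone gave at most 2 reads for any member. The level of ssc-miR-143-3p was 225 times that of BLs in ES-like cells (counting interval 194 to 263), 305 times in PEBs (263 to 357) and 1729 times in PFFs (1488 to 2022). The alternatives of scaling and of BL reference given next moved the ratios beyond these intervals, except that of PFFs with TMM. The ratio in ES-like cells was 100.3 with TMM, 339 over the mean of the BL RPM values and 752 over BL_1 alone, and that in PEBs was 155, 460 and 1019. For PFFs it was 1645, 2604 and 5773. ssc-miR-145-5p, with 3 reads in the summed BLs, had ratios of 309 in ES-like cells (106 to 1502), 316 in PEBs (108 to 1534) and 2598 in PFFs (889 to 12599). With TMM these were 138, 161 and 2472, and over the mean of the BL RPM values they were 595, 608 and 4992. For ssc-miR-145-3p, the single BL read gave ratios of 504 (90.3 to 19941), 912 (164 to 36025) and 1479 (265 to 58412). It lay in BL_1, and with the mean of the RPM of BL_1 and BL_2 in place of summed reads these 3 ratios were 39.6, 71.6 and 116, and over BL_1 alone they were 19.8, 35.8 and 58.1. ssc-miR-143-5p was at least 59.99-fold higher in ES-like cells, at least 76.2-fold higher in PEBs and at least 822-fold higher in PFFs than the limit of 3 reads over the summed BLs. The counting intervals of these ratios started lower, at 48.6, 61.9 and 668. The limit rested on the depth of BL_2, since that of BL_1 alone was 26.4 RPM. All 4 members were thus more than 2-fold above BLs in each cultured library. So were 35.5% of the 279 miRNAs tested in PFFs, 52.7% in PEBs and 53.4% in ES-like cells, with miRNAs at 0 reads set to the limit, and the median ratio over these miRNAs was 0.920 in PFFs, 2.25 in PEBs and 2.41 in ES-like cells.

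The 2 BL libraries were tested against the 3 cultured libraries with edgeR's quasi-likelihood test on 279 miRNAs. ssc-miR-143-3p was called higher in cultured cells, with a log2 fold change of 9.93 (SE 2.21, adjusted p = 0.0274). ssc-miR-145-5p, with 3 BL reads in all, entered the test through its cultured libraries alone, so its log2 fold change of 9.99 (SE 2.30, adjusted p = 0.0296) is given as a description. Across the 279 miRNAs, 4.66% were called higher and 6.45% lower, and the median log2 fold change was 0.84. An unadjusted p under 0.05 was reached by all 4 members and by 35.1%. ssc-miR-143-5p and ssc-miR-145-3p missed the threshold of 0.05, with adjusted p = 0.0553 and 0.0540 from the same edgeR fit. All 4 members were higher in 3 of 3 cultured libraries than in either BL library, as were 41.9% of the miRNAs tested. Only ssc-miR-143-3p had more than 5 reads in a BL library, so the others passed the read filter through the cultured libraries alone, and the count of members called is a description. That filter asked for over 5 reads in 3 libraries, and BLs had 2, so miRNAs confined to BLs could not enter. The shares of tested miRNAs above BLs, here and for the ratios, leave such miRNAs out. The calls depended on single libraries. Without PFFs, the log2 fold changes of ssc-miR-143-3p and ssc-miR-145-5p were 7.55 and 7.28, and without ES-like cells they were 10.96 and 11.06. In edgeR, ssc-miR-143-3p had an adjusted p of 0.176 without BL_1, 0.162 without BL_2 and 0.0769 without PEBs, and the values for ssc-miR-145-5p were 0.172, 0.208 and 0.0769, with 0.0503 without ES-like cells. The labels do not say whether the BL pools came from separate batches of oocytes, and the cultured side mixes 3 cell types, so these p-values measure only the spread between these libraries.

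The study set pluripotent cells (BLs and ES-like cells, 3 libraries) against differentiated cells (PEBs and PFFs, 2 libraries). No member was called. The log2 fold changes towards differentiated cells were 4.73 for ssc-miR-143-3p (SE 2.38), 4.79 for ssc-miR-145-5p (SE 2.23), 5.38 for ssc-miR-143-5p (SE 2.29) and 3.50 for ssc-miR-145-3p (SE 2.02), each with an adjusted p of 0.478 from edgeR's quasi-likelihood test. These values rested on single libraries, with 2.20 for ssc-miR-143-3p and 1.76 for ssc-miR-145-5p without PFFs. edgeR called 0 of the 279 miRNAs in either direction (0%), while 21 (7.53%) passed 0.05 before adjustment, ssc-miR-143-5p among them. limma-voom also called 0, and DESeq2 called 14. DESeq2 gave an adjusted p for ssc-miR-145-3p alone among the members, and it was 0.333. ES-like cells lay with PEBs rather than with BLs for all 4 members. Without ES-like cells, ssc-miR-143-3p was called with a log2 fold change of 10.96 and an adjusted p of 0.0416 in edgeR, and the comparison was then one of BLs with PEBs and PFFs.

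Among the cultured cells, the pair was highest in PFFs. In RPM, ssc-miR-143-3p in PFFs was at 7.67 times its level in ES-like cells (7.62 to 7.73) and at 5.67 times that in PEBs (5.64 to 5.69). ssc-miR-145-5p was at 8.40 times (8.03 to 8.78) and 8.22 times (7.99 to 8.45). ssc-miR-143-5p showed the steepest ratios, 13.7 (12.4 to 15.2) over ES-like cells and 10.8 (10.19 to 11.4) over PEBs. ssc-miR-145-3p showed the flattest, 2.93 (2.76 to 3.12) and 1.62 (1.57 to 1.68). A ratio above 2 over ES-like cells was reached by 4 of 4 members and by 16.1% of the miRNAs tested, and over PEBs by 3 of 4 members and by 14% of the miRNAs tested. Larger ratios of PFFs over ES-like cells than that of ssc-miR-143-3p were found for 9 of the 279 miRNAs, ssc-miR-143-5p and ssc-miR-145-5p included.

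The scale of these ratios depended on the library totals. In RPM, the median ratio of PFFs over ES-like cells across the 279 miRNAs was 0.451, a log2 of -1.15, and that over PEBs was 0.578. With ssc-miR-21, at 52.3% of the reads of PFFs, left out of the totals, these medians were 0.798 and 0.982, and with TMM they were 0.963 and 1.08. With TMM factors, the ratio of ssc-miR-143-3p in PFFs was 16.4 over ES-like cells and 10.6 over PEBs, and with ssc-miR-21 left out of the totals it was 13.6 and 9.63. The ratio of ssc-miR-145-3p over PEBs, below 2 in RPM, was 3.03 with TMM. Scaling changes all members of a library by one factor, so the order of the members' ratios was the same under each.

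PEBs were compared with the ES-like cells from which they were made. ssc-miR-143-3p was 1.35 times as high in PEBs (1.34 to 1.37), ssc-miR-143-5p 1.270 times (1.13 to 1.43) and ssc-miR-145-3p 1.81 times (1.69 to 1.93). The ratio of ssc-miR-145-5p was 1.02 (0.971 to 1.08), an interval that holds 1. Its reading depended on the scaling, with 1.04 (0.987 to 1.09) under RLE factors, 1.06 (1.01 to 1.12) without ssc-miR-21 in the totals and 1.17 (1.11 to 1.23) under TMM, the last 2 intervals lying above 1. No member passed 2-fold, against 20.4% of the miRNAs tested, and the median ratio of these was 0.855. With TMM, the ratio of ssc-miR-145-3p was 2.07, and those of the other members were from 1.17 to 1.55. Both libraries came from 1 line, without a replicate.

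Other miRNAs known from mesenchymal cells and fibroblasts were set beside the pair. The list held 18 mature names of 14 miRNAs, and all passed the read filter. In the test of BLs against cultured cells, 5 of the 18 were called higher and 0 lower (background 4.66% and 6.45%). Without BL_1, without BL_2 or without PEBs, edgeR called 0 miRNAs higher, so none of these 5 calls held. The median log2 fold change of the list was 2.17, beside 0.84 for all miRNAs tested. The 5 were ssc-miR-199a-3p, ssc-miR-199b-3p, ssc-miR-199a-5p, ssc-miR-214 and ssc-miR-29a, known for their part in mesenchymal development and in the control of collagen genes. ssc-miR-214, with 0 reads in BL_1 and 2 in BL_2, entered the test through the cultured libraries alone, so its call is a description. ssc-miR-199a-3p and ssc-miR-199b-3p had nearly equal counts in every library, so the same reads may have been counted for both. Other names of the list ran the other way. In RPM, 3 of the 18 were highest in a BL library, ssc-miR-10b, ssc-miR-222 and ssc-miR-221-5p. Their log2 fold changes were -2.73, -1.51 and -1.41, none of them called. ssc-miR-10b had 28485 RPM in BL_1, 36027 in BL_2 and 6210 in PFFs. In the test of differentiated against pluripotent cells, 0 of the 18 were called by edgeR, and 2 passed 0.05 before adjustment, a share near the background of 7.53%.

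Relative to PFFs, 3 of the 4 members were lower in ES-like cells and PEBs than most of the list. The level of ssc-miR-143-3p in ES-like cells was 13.0% of that in PFFs in RPM, that of ssc-miR-145-5p 11.9% and that of ssc-miR-143-5p 7.30%. None of the 18 names lay below any of these 3 values, the lowest being ssc-miR-222 at 15.8%, and the median of the list was 44.1%. ssc-miR-145-3p, at 34.1%, lay above 8 of the 18. In PEBs, ssc-miR-143-3p was at 17.7% of its level in PFFs, ssc-miR-145-5p at 12.2%, ssc-miR-143-5p at 9.27% and ssc-miR-145-3p at 61.7%, and the median of the list was 106%. In RPM, ssc-miR-100, at 15.4%, was the only name of the list below ssc-miR-143-3p in PEBs. With TMM, the percentages were lower. ssc-miR-143-3p was then at 9.44% in PEBs and 6.09% in ES-like cells, while the list had medians of 56.8% and 20.6%. These positions within the list do not change with the scaling, since one factor applies to all miRNAs of a library.

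For ssc-miR-199a-3p, ssc-miR-199a-5p and ssc-miR-214, the library with the highest level turned with the scaling. In RPM, PEBs had 153%, 135% and 150% of the level of PFFs. With TMM these values were 81.9%, 72.01% and 80.2%, and they also lay below 100% with RLE factors and with ssc-miR-21 left out, so under those scalings PFFs were highest, as for the pair. Of the 18 names, 7 were highest in PFFs in RPM and 15 with TMM, while all 4 members were highest in PFFs under RPM, TMM, RLE and RPM without ssc-miR-21. Over all miRNAs tested, the median ratio of PFFs over PEBs was 0.578 in RPM and 1.08 with TMM. The counts of names highest in PFFs are therefore given as a description, not as a trait of the list.

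**Figure D2:**
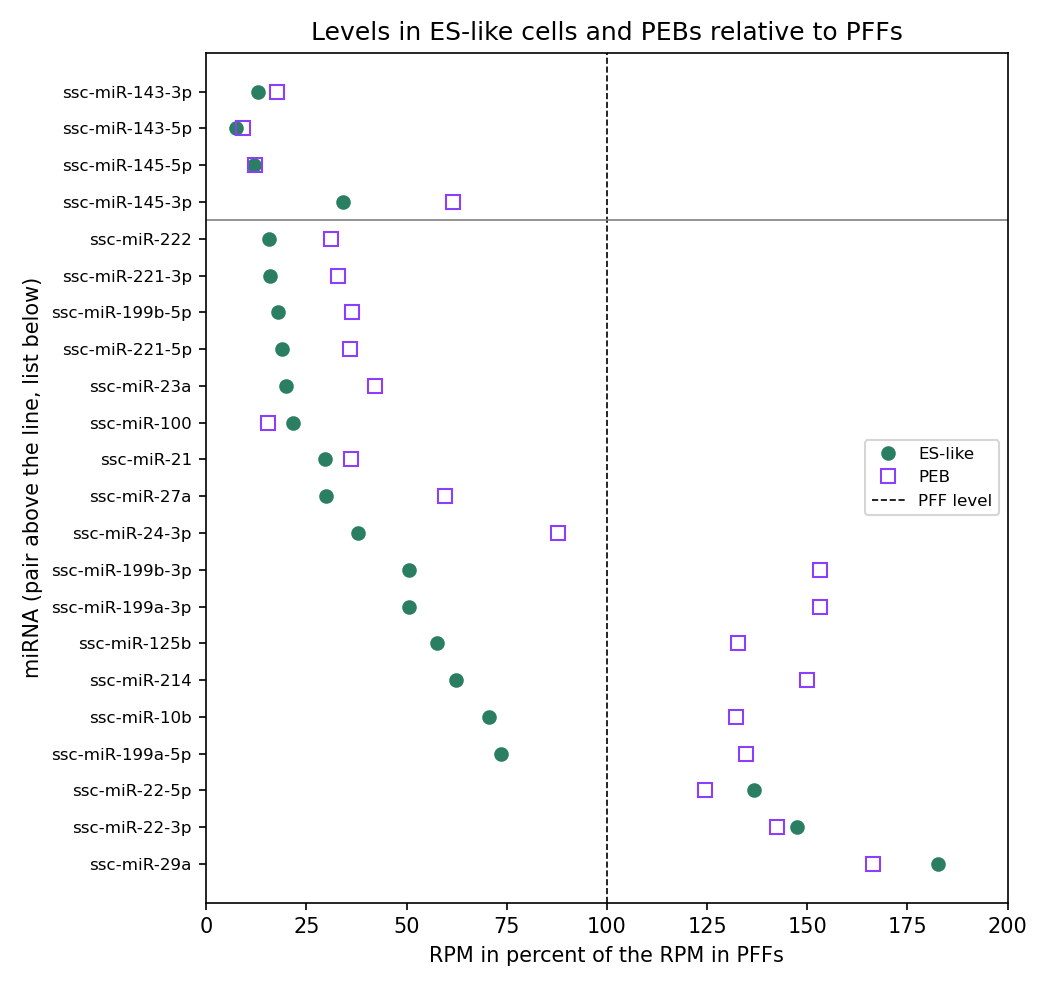
RPM in ES-like cells (circles) and PEBs (squares) in percent of the RPM in PFFs, for the 4 members above the line and the 18 names of the mesenchymal list below it, 1 library per cell type. ssc-miR-143-3p lies at 13.0% and 17.7%, and ssc-miR-199a-3p at 50.5% and 153%. With TMM, squares right of the dashed line for ssc-miR-199a-3p, ssc-miR-199a-5p and ssc-miR-214 move left of it.

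Markers of other cell types were set beside the pair as well. The ES-like cells had been grown on mouse fibroblasts, and the table gives one count for each miRNA without separating pig from mouse reads. In ES-like cells, the summed level of the mesenchymal list was 262616 RPM, between 118544 RPM in BL_2 and 438505 RPM in PEBs. The list summed to 724154 RPM in PFFs and 82976.5 RPM in BL_1. Of the sum in ES-like cells, ssc-miR-21 alone gave 154848 RPM, and reads of ssc-miR-199a-3p and ssc-miR-199b-3p may be in it more than once. There, ssc-miR-199a-3p and ssc-miR-214 were at 50.5% and 62.4% of their level in PFFs. The part of feeder cells in the level of the pair in ES-like cells was not tested. The muscle list (6 miRNAs, 8 names) summed to 1096 RPM in PFFs, 646 in PEBs, 404 in ES-like cells, 2630 in BL_2 and 1231 in BL_1. The list was highest in BL_2. The sum rested mostly on ssc-miR-1 except in ES-like cells, where ssc-miR-499-5p gave more of it (208 RPM) than ssc-miR-1 (155 RPM). Of the 6 names tested, 3 were above 2-fold and 3 below 0.5-fold in PFFs over ES-like cells. Across all miRNAs tested, 16.1% were above 2-fold in this ratio. Their median ratio was 0.451, so more of them than not were below 0.5-fold. ssc-miR-1, of skeletal and heart muscle, was at 898 RPM in PFFs, 503 in PEBs, 155 in ES-like cells, 1968 in BL_2 and 853 in BL_1. ssc-miR-133a-3p, of the same muscles, was at 119, 26.6, 12.6, 450.0 and 176 RPM in that order of libraries, and ssc-miR-206, of skeletal muscle, had 0 reads in PFFs. Both ssc-miR-1 and ssc-miR-133a-3p had the order of the pair among the cultured libraries. ssc-miR-499-5p, of heart and slow muscle, had the reverse order, with 68.2 RPM in PFFs, 84.4 in PEBs and 208 in ES-like cells. The part of muscle cells in the level of the pair was not tested. ssc-miR-126-3p, of endothelial cells, was at 161 RPM in PFFs, 287 in PEBs and 1294 in ES-like cells, the reverse of the order of the pair among the cultured libraries, and lower in BL_1 (105.5 RPM) and BL_2 (44.6 RPM). The blood cell list (5 of 6 miRNAs in the table) summed to 3.88 RPM in PFFs, 94.8 in PEBs, 62.3 in ES-like cells, 98.5 in BL_2 and 123 in BL_1. Names of this list ran in opposite directions. ssc-miR-142-5p was at 55.8 RPM in PEBs, 1.80 in BL_2 and 0 in BL_1. In contrast, ssc-miR-486 was at 7.32, 49.6 and 105.5 RPM in that order of libraries. ssc-miR-122, of liver, was at 4.14 RPM in PFFs, 54096 in PEBs, 101004 in ES-like cells, 837 in BL_2 and 1767 in BL_1. Of the pluripotency list, 5 of 12 miRNAs were in the table, and they summed to 336 RPM in PFFs, 13031 in PEBs, 51921 in ES-like cells, 296564 in BL_2 and 325172 in BL_1, almost all of it ssc-miR-371-5p in BLs. The other names ran against this sum. In ES-like cells over BLs, 4 of the 5 were above 2-fold and 1, ssc-miR-371-5p, was below 0.5-fold. Above 2-fold were 53.4% of all miRNAs tested.

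The miRNAs whose profile was most like that of the members were sought by the root mean square difference between profiles of log2(RPM + 10), each centred on its own mean over the 5 libraries. Nearest to ssc-miR-143-3p were ssc-miR-199a-5p (1.22), ssc-miR-199b-3p (1.30), ssc-miR-199a-3p (1.30), ssc-miR-29a (1.78) and ssc-miR-199b-5p (1.99), against a median of 4.54 over all miRNAs tested. ssc-miR-145-5p lay at 1.70 from ssc-miR-143-3p, farther than the first 3 of these. This order turned with the pseudocount. With 1 RPM in place of 10, ssc-miR-145-5p lay at 0.52 from ssc-miR-143-3p, nearer than any of the tested miRNAs outside the pair, and ssc-miR-199a-5p lay at 1.33. With 100 RPM, 7 such miRNAs were nearer than ssc-miR-145-5p, which then lay at 2.33. Nearest to ssc-miR-145-5p were ssc-miR-199b-5p (0.62), ssc-miR-152 (0.89) and ssc-miR-214 (1.16), against a median of 3.05, and ssc-miR-143-5p and ssc-miR-145-3p lay at 0.92 and 1.09. The levels of ssc-miR-199b-5p had the same order as those of ssc-miR-145-5p, with 36185 reads in PFFs (1337 RPM), 7715 in PEBs (487 RPM), 1522 in ES-like cells (239 RPM), 21 in BL_2 (7.55 RPM) and 0 in BL_1. Its steps differed, since it lay clearly higher in PEBs than in ES-like cells, and PFFs stood less far above PEBs. These 5 points share a difference in depth and, for ES-like cells and PEBs, a line of origin.

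**Figure D3:**
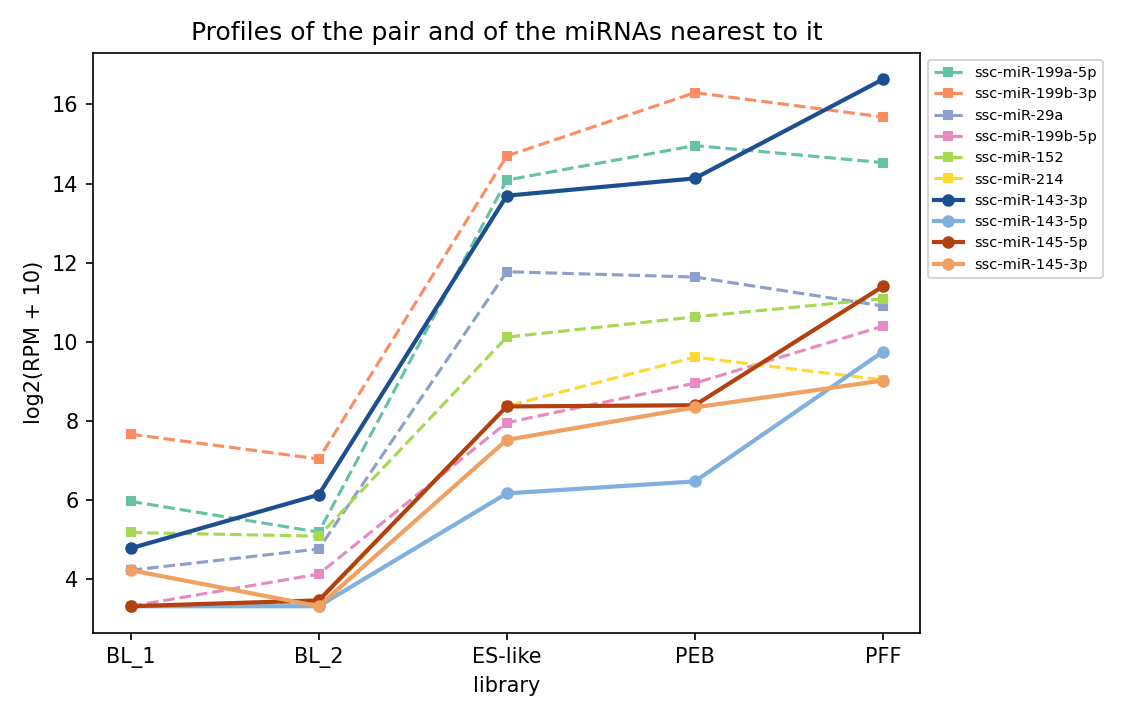
Profiles of log2(RPM + 10) over the 5 libraries for the 4 members (solid lines) and the miRNAs nearest to ssc-miR-143-3p or ssc-miR-145-5p (dashed lines, without ssc-miR-199a-3p, which overlies ssc-miR-199b-3p). The members are highest in PFFs, while ssc-miR-199a-5p, ssc-miR-199b-3p and ssc-miR-214 are highest in PEBs on this scale and in PFFs with TMM. Lines join libraries to show profiles and imply no order.

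Ratios within the pair were taken inside each library, where no scaling between libraries enters. ssc-miR-143-3p had 41.3 reads for each read of ssc-miR-145-5p in ES-like cells (Wilson interval 39.5 to 43.1), 54.7 in PEBs (53.2 to 56.2) and 37.7 in PFFs (37.4 to 38.0). In BL_2 the ratio was 56.0 on 3 reads of ssc-miR-145-5p (18.9 to 166), an interval that holds the values of the 3 cultured libraries. With both arms of each hairpin counted, mir-143 had 26.9 reads for each read of mir-145 in ES-like cells (25.9 to 27.8), 28.0 in PEBs (27.5 to 28.6) and 32.0 in PFFs (31.7 to 32.2). Among the cultured libraries, the ratio of the hairpins therefore moved less than that of ssc-miR-143-3p to ssc-miR-145-5p. In BLs it rested on few reads, with 2 of mir-143 to 1 of mir-145 in BL_1 (ratio 2, interval 0.262 to 15.3, below the cultured libraries) and 168 to 3 in BL_2 (56.0, 18.9 to 166). In contrast, the opposite strands changed places. ssc-miR-143-5p had 0.357 reads for each read of ssc-miR-145-3p in ES-like cells (0.318 to 0.400), 0.251 in PEBs (0.236 to 0.267) and 1.67 in PFFs (1.63 to 1.70).

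The arms of mir-145 were shared differently in each cultured library. ssc-miR-145-5p held 64.8% of the reads of both arms in ES-like cells (2043 of 3153 reads, Wilson interval 63.1 to 66.4%), 51.0% in PEBs (5192 of 10183, 50.02 to 51.96%) and 84.1% in PFFs (72867 of 86691, 83.8 to 84.3%). The 5p arm thus had 1.84, 1.04 and 5.27 reads for each read of the 3p arm, and in PEBs the arms were almost even. BLs had 4 reads of mir-145 in all, too few to give a ratio. Between PEBs and PFFs, the ratio of the arms changed by 5.07-fold, and between ES-like cells and PFFs by 2.86-fold. Each library had 1 sample, so the change has no replicate check.

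mir-143 was strongly one-sided. The 3p arm held 99.5% of the reads in ES-like cells (99.5 to 99.6%), 99.6% in PEBs (99.5 to 99.6%) and 99.2% in PFFs (99.2 to 99.2%), and all 170 reads in the summed BLs (Wilson interval from 97.8%). For each 5p read there were 213 reads of the 3p arm in ES-like cells (193 to 235), 227 in PEBs (215 to 240) and 119 in PFFs (118 to 121). The share of the 5p arm was 0.832% in PFFs (0.821 to 0.843%), 0.468% in ES-like cells (0.424 to 0.516%) and 0.439% in PEBs (0.415 to 0.464%). In PFFs, both hairpins had a higher share of the 5p arm than in the other cultured libraries. Among the other hairpins with both arms named, about as many shifted towards the 5p arm in PFFs as towards the 3p arm. The shared direction was thus not particular to the pair.

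**Figure D4:**
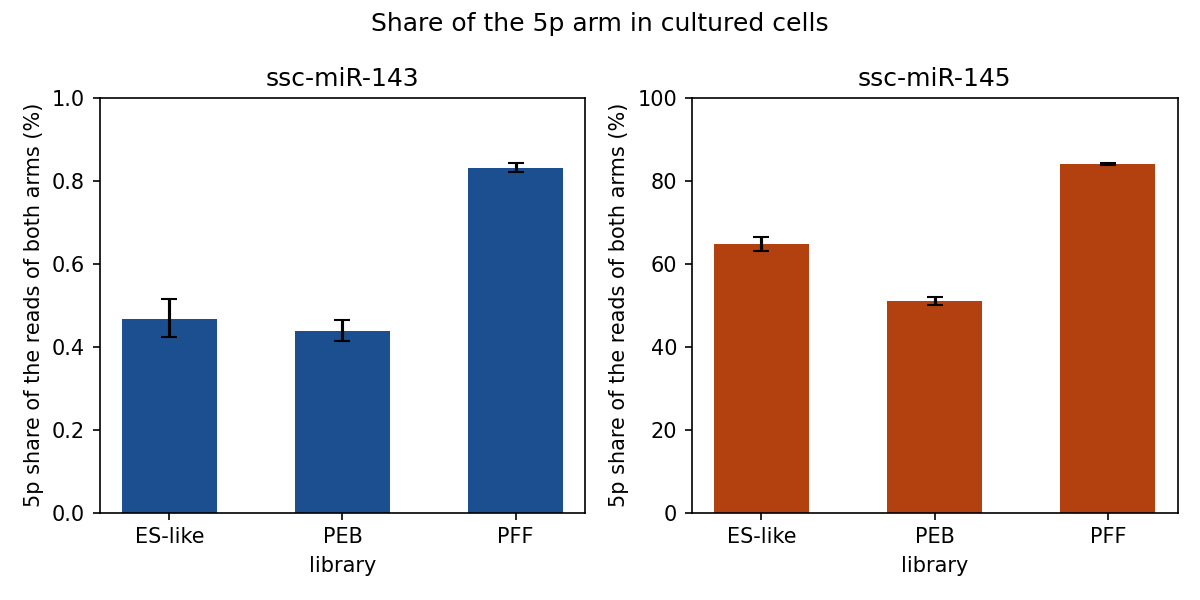
Share of the 5p arm in the reads of both arms of mir-143 (left, axis to 1%) and mir-145 (right, axis to 100%) in the cultured libraries. Bars are single libraries with Wilson 95% intervals. The share for mir-145 is 51.0% in PEBs and 84.1% in PFFs, and that for mir-143 is 0.439% in PEBs and 0.832% in PFFs.

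The change in arm ratio was set beside that of the other hairpins with both arms named and at least 100 reads over both arms in the libraries compared. Between PFFs and ES-like cells, 54 other hairpins had a median change of 1.49-fold in either direction, and 5 changed more than mir-145. Between PFFs and PEBs, the median of 58 other hairpins was 1.78-fold, and 7 changed more than mir-145. Between PEBs and ES-like cells, mir-145 changed by 1.77-fold, the median of 57 others was 1.33-fold, and 12 changed more. mir-143 changed by 1.78-fold between PFFs and ES-like cells and by 1.90-fold between PFFs and PEBs, where 19 and 27 other hairpins changed more, and by 1.07-fold between PEBs and ES-like cells, where 50 of the 57 others changed more. The change of mir-145 lay in the upper part of the range of the other hairpins in each comparison, while that of mir-143 lay slightly above their median in both comparisons with PFFs and in the lower part of the range between PEBs and ES-like cells.

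**Figure D5:**
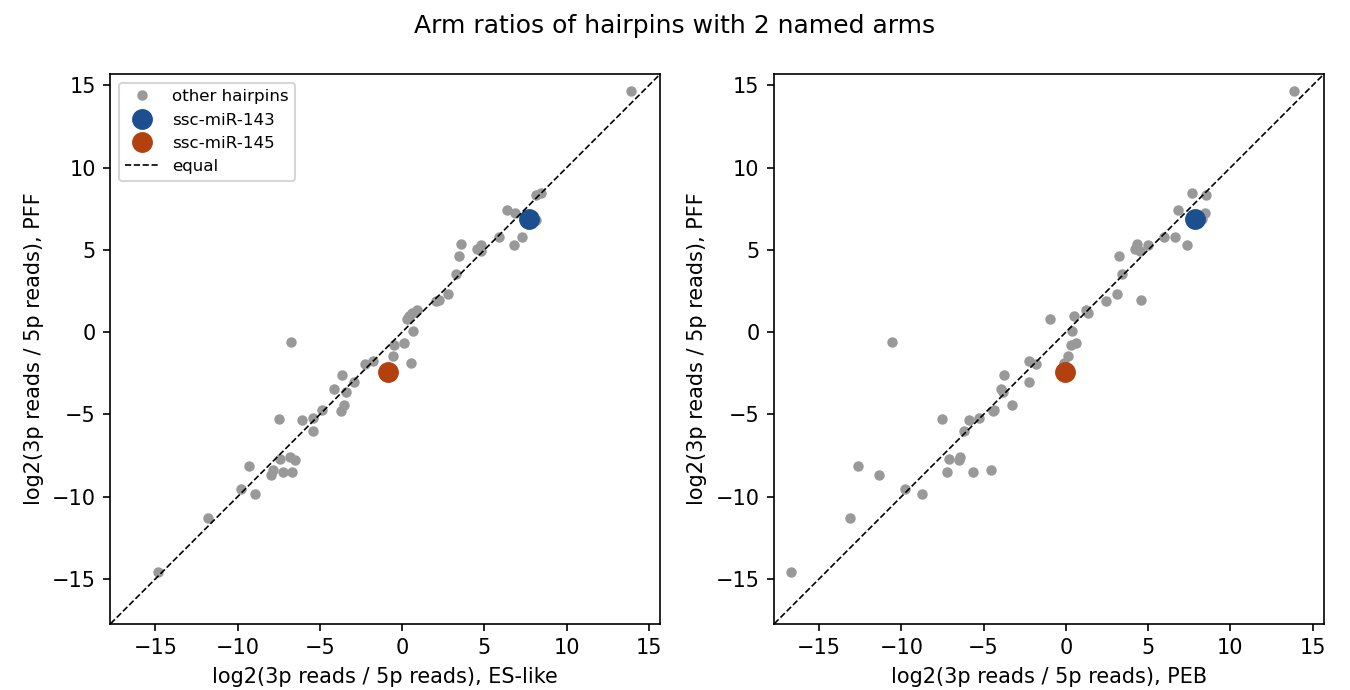
log2 of 3p reads over 5p reads (0.5 reads added to each arm) of each hairpin with both arms named, in PFFs against ES-like cells (left) and against PEBs (right), for hairpins with at least 100 reads in each of the 3 cultured libraries. Gray points are other hairpins and the dashed line marks equal ratios. mir-145 lies below the line in both plots, by 1.52 and 2.34 on the log2 scale, and mir-143 by 0.83 and 0.93.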

How the data were processed

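Small RNA was sequenced in 5 libraries. The authors trimmed adapters with Cutadapt 1.10 and aligned reads to the pig genome Sscrofa10.2 with Bowtie 1.1.1. For quantification they name SAMtools and HTSeq beside Bowtie, and miRDeep2 served to sort miRNAs into reported and predicted ones. The table they deposited holds raw read counts, 1 column per library and 1 row per mature miRNA and precursor. How reads matching several precursors were treated is not given in the sources used here. Columns were assigned by the names in the sample titles. The study's summary of reads gives the totals of ES-like cells and PFFs the other way round. The column sums and the titles were used here. The table of predicted loci names no miRNA and was not used here.

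Counts were summed over precursor rows and divided by the library total (RPM). Members were called with edgeR 4.0.16 in R 4.3.3 (TMM factors, quasi-likelihood test, adjustment after Benjamini and Hochberg, threshold 0.05), after a test on simulated data. The SE of a log2 fold change was derived as its absolute value over the square root of the F statistic of the quasi-likelihood test. miRNAs entered if 3 or more libraries had over 5 reads of them, which left 279. Alternatives were RLE factors, library size alone, DESeq2 1.42.0, limma 3.58.1, no filter and the omission of single libraries. Ratios between libraries have exact conditional binomial intervals, shares have Wilson intervals and the limit for 0 reads is 3 reads. Named miRNAs are the members, the 5 nearest ssc-miR-143-3p, the 3 nearest ssc-miR-145-5p and up to 4 of each marker list, with those needed for a count of 5 or fewer. The members and lists were chosen with earlier results of these data known. Ratios and intervals were computed in Python 3.11.15 with scipy 1.17.1, pandas 2.3.3 and numpy 2.4.6.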

Additional observations from a re-analysis of the deposited data

How the results depend on the processing

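The order of the members over the cell types was the same under RPM, TMM and RLE scaling and with ssc-miR-21 left out of the totals. The size of the ratios of ssc-miR-143-3p moved. With TMM, it was 16.4 for PFFs over ES-like cells, 1.55 for PEBs over ES-like cells, 10.6 for PFFs over PEBs, 100.3 for ES-like cells over BLs and 155 for PEBs over BLs. With RLE factors, these were 15.5, 1.38, 11.3, 149 and 206, and PFFs over BLs was 2318. Without ssc-miR-21, the first 3 were 13.6, 1.41 and 9.63, and PFFs over BLs was 3374. With BLs as the mean of both RPM values, the ratios over BLs were 2604 for PFFs, 460 for PEBs and 339 for ES-like cells. With only 1 BL library they ranged from 1681 to 5773, from 297 to 1019 and from 219 to 752, the higher value resting on 2 reads in BL_1. With the largest precursor row in place of the sum, only the library totals changed for the pair, and ssc-miR-143-3p was at 116097 RPM in PFFs, 23691 in PEBs, 16044 in ES-like cells and 72.6 in BL_2, while the shares of the arms were as before. With a pseudocount of 100, 1 of the 3 miRNAs nearest to ssc-miR-145-5p was kept.

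In the test of BLs against cultured cells, 13 miRNAs were called higher and 18 lower in cultured cells. The count of higher calls was 32 with RLE factors, 35 with library size alone, 65 with DESeq2, 7 with limma-voom and 26 without the filter, and ranged from 0 to 75 when single libraries were left out, with 0 without BL_1, BL_2 or PEBs and 75 without PFFs. The count of lower calls was 35 with DESeq2 and ranged from 1 to 44 when single libraries were left out. The adjusted p of ssc-miR-143-3p ranged from 8.18e-13 in DESeq2 to 0.176, and that of ssc-miR-145-5p from 3.88e-08 in DESeq2 to 0.208, with 0.137 in limma-voom. ssc-miR-143-5p and ssc-miR-145-3p, just past the threshold, were called with RLE factors (adjusted p = 0.0464 and 0.0476 in edgeR), with library size alone (0.0319 and 0.0325), in DESeq2 (3.59e-06 and 3.00e-05) and without PFFs (0.000120 and 2.98e-05). The cause of these changes was not tested. For differentiated against pluripotent cells, DESeq2 called 1 miRNA higher and 13 lower and gave no adjusted p for 3 of the members. When single libraries were left out, from 0 to 9 were called higher and from 0 to 6 lower, all of them without ES-like cells. No member changed direction under any setting that gave it an adjusted p. No paired analysis was possible because BLs alone had more than 1 replicate number. The depth of BL_1 limited what could be said of the pair in BLs.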
